A study of Mus musculus with 66 samples.

Results

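The D3 group is made up of 3 C2C12 lines that express GFP-tagged H3.3, H3mm7 or H3mm11. Here their differentiated libraries were set against those of the GFP-H3.1, GFP-H3.2 and GFP-H3t lines, called the comparison lines below. The sets hold 3 libraries each, 6 of the 20 mRNA-Seq samples and 6 of the 66 samples of the series. C2C12 is a mouse myoblast line whose cells leave the cell cycle and fuse into myotubes when serum is withdrawn. Every line used here carries a doxycycline-inducible GFP-H3 transgene, was selected with doxycycline and G418 and was sorted for GFP, so the comparison lines are also transgenic. Growing cells were kept in 20% fetal bovine serum, and differentiated cells were kept for 48 h in 2% horse serum. H3.1 and H3.2 are the canonical H3 proteins made mainly in S phase, H3.3 is the replacement form placed on chromatin throughout the cell cycle, and H3t is best known from testis. H3mm7 and H3mm11 are H3 variants close to H3.3 that the study describes. Each line and state has 1 library, so the lines were the units of every comparison, and a difference between variants cannot be told apart from a difference between the individual lines. A supplementary legend of the study gives GFP-H3mm7 as less abundant than the other variants in the experiment it describes, which does not cover H3mm11 or H3.2. Transgene levels were not analysed here.

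The members were chosen on measured values. The study named the D3 group from the second principal component (PC2) of the same libraries, and a recomputed PC2 held 10.6% of the variance over the 18 GFP-H3 libraries. Differentiated cells of the H3.3, H3mm7 and H3mm11 lines scored 17.8, 21.8 and 12.9 on it, against -9.07, -10.5 and -2.63 for the H3.1, H3t and H3.2 lines. The differences between these 6 libraries are therefore given as a description, without a test. A gene was called higher, or lower, when all 3 D3 libraries lay on the same side of all 3 comparison libraries and the set means differed by at least 1 on the log2(FPKM + 1) scale. FPKM is the estimated number of fragments scaled to transcript length and to sequencing depth, and differences on this scale understate the change of low genes. Of 22489 genes, 10880 had a mean of at least 1 FPKM over the 6 libraries. The genes just above this limit were 2610016A17Rik and 4930562F07Rik, with differences of 0.20 and 0.44 and overlapping sets. Just below it were Gstt1, with 0.724 to 1.42 FPKM in the D3 lines and 0.402 to 1.52 FPKM in the comparison lines, and Slc46a3, with 0.386 to 1.79 and 0.426 to 1.39 FPKM.

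The endoplasmic reticulum (ER) folds secreted and membrane proteins with the help of chaperones and disulfide isomerases. When unfolded proteins build up, the sensors ATF6, IRE1 and PERK raise the transcription of chaperones, of the degradation machinery and, through ATF4, of genes of amino acid supply and of the factor CHOP. Myoblast differentiation is known to engage part of this response. The sarcomere genes encode the contractile apparatus and are the usual readout of how far a culture has differentiated, so they set the scale on which the lines were compared.

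Promoter sequences are shown for the ER chaperone list because many of its members differ between the sets and several hold a known element. The ER stress response element (ERSE) was searched as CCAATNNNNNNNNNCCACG on both strands in the RefSeq promoters of GRCm38.p6, from 250 bases before to 50 bases after the transcript start. It was found in 8 of the 23 list members with a promoter (34.8%) and in 0.137% of all 27025 genes. The sites of the 5 members that were called higher are printed first, followed by those of the 3 that were not, 5′ to 3′ on the strand of the gene, with the element in capitals and 5 bases on each side.
Hspa5 (chr2:34772020-34772048, plus strand): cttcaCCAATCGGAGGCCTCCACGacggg
Hsp90b1 (chr10:86705633-86705661, minus strand): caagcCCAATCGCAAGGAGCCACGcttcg
Hsp90b1 (chr10:86705528-86705556, minus strand): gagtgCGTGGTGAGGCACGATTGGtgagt
Calr (chr8:84847070-84847098, minus strand): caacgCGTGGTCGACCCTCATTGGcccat
Pdia6 (chr12:17266486-17266514, plus strand): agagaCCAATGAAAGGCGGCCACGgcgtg
Ero1lb (chr13:12565677-12565705, plus strand): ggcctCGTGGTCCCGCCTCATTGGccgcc
Canx (chr11:50325795-50325823, minus strand): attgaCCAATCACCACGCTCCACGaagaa
Creld2 (chr15:88819515-88819543, plus strand): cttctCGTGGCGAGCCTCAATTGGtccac
Dnajc3 (chr14:118937822-118937850, plus strand): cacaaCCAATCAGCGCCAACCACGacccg
Among the list members with a promoter, 5 of the 14 that were called higher (35.7%) and 3 of the 9 that were not (33.3%) held the element. A second element, UPRE (TGACGTGG), was found in 2 of the 23 (8.70%) and in 0.714% of all genes. The amino acid response element CARE (TGATGNAAT) was in 2 of 19 genes of the PERK-ATF4-CHOP list and in 1 of 17 amino acid genes, against 1.08% of all genes. Among the members called higher, CARE was in 0 of 5 PERK-ATF4-CHOP genes and in 1 of 7 amino acid genes. A match is a run of letters in these windows and was not tested as a binding site.

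Libraries of both sets expressed muscle genes. Myog, the transcription factor that starts terminal differentiation, was at 513, 496 and 347 FPKM in the H3.3, H3mm7 and H3mm11 lines and at 333, 329 and 929.7 FPKM in the H3.1, H3t and H3.2 lines. Summed over 6 muscle markers, FPKM was 1173 to 1678 in the D3 lines and 1906 to 3324 in the comparison lines. Of 39 markers of other cell types, 11 reached a mean of 1 FPKM. Total FPKM was 718716 to 894105 in the D3 libraries and 583613 to 652841 in the comparison libraries, and the 100 highest genes took 42.7% to 48.2% and 35.6% to 37.0% of it. The median difference over all genes was -0.0020, and size factors by the median of ratios lay between 0.988 and 1.03. FPKM gives no read numbers. The spacing of low values put the H3mm11 library at about 0.529 of the depth of the H3.1 library, on 7.48% of 802 low genes, while H3.3, H3mm7 and H3.2 lay between 0.946 and 1.12 and H3t showed no clear spacing. In 15 genes a library was listed at 0 while both others of its set had at least 10 FPKM, and 4 of these genes were called. They are Sec61g, listed at 0 in H3t, Amd2 in H3.2, Dag1 in H3.3 and Sept2 in H3mm11, and no fold is given for them.

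Sarcomere genes were at a similar level in 5 of the 6 lines. The mean log2 level of the 37 genes past the filter, of 48 fixed, was 6.20, 6.02 and 5.84 in the D3 lines (H3.3, H3mm7 and H3mm11, the order used throughout). For the comparison lines, always in the order H3.1, H3t and H3.2, it was 6.02, 5.99 and 6.95. The H3.2 line stood above all others, and the H3.1 and H3t lines lay inside the range of the D3 lines. The set means were 6.02 ± 0.18 and 6.32 ± 0.55 (SD, n = 3 lines each), with a median difference of -0.32 over the members. Without the H3.2 line the median difference was 0.03. None of the 37 genes was called higher and 5 were called lower, 13.5% of the list against 3.07% of all 10880 genes.
Actc1, the cardiac actin of immature myotubes, was the sarcomere gene with the largest difference. It was at 364, 293 and 257 FPKM in the H3.3, H3mm7 and H3mm11 lines and at 521, 1029 and 1221 FPKM in the H3.1, H3t and H3.2 lines, a difference of -1.52. The other 4 called were Neb (-1.09), Unc45b (-1.07), Myl6b (-1.05) and Tnnt1 (116, 149 and 157 FPKM against 310.2, 231 and 307 FPKM), which encode a giant thin-filament protein, a myosin chaperone, a light chain and the slow troponin T. Myl6b was separated by only 0.04, with 80.2 FPKM in H3.3 against 82.3 FPKM in H3t. Myh3, the embryonic myosin heavy chain, was lower in all 3 D3 libraries by 0.96 and missed the size limit. The myogenic regulators had a median difference of -0.40 over 12 genes, which was -0.23 without H3mm7. In muscle metabolism, Cox6a2, the heart and muscle form of a cytochrome c oxidase subunit, was called higher (309, 308 and 147 FPKM against 49.1, 15.9 and 112 FPKM) and Pfkm, muscle phosphofructokinase, lower by 1.16. Of 18 excitation-contraction genes 1 was called lower (5.56%), and of 14 genes of fusion and the muscle membrane 2 were (14.3%), beside 3.07% of all genes.

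**Figure D1:**
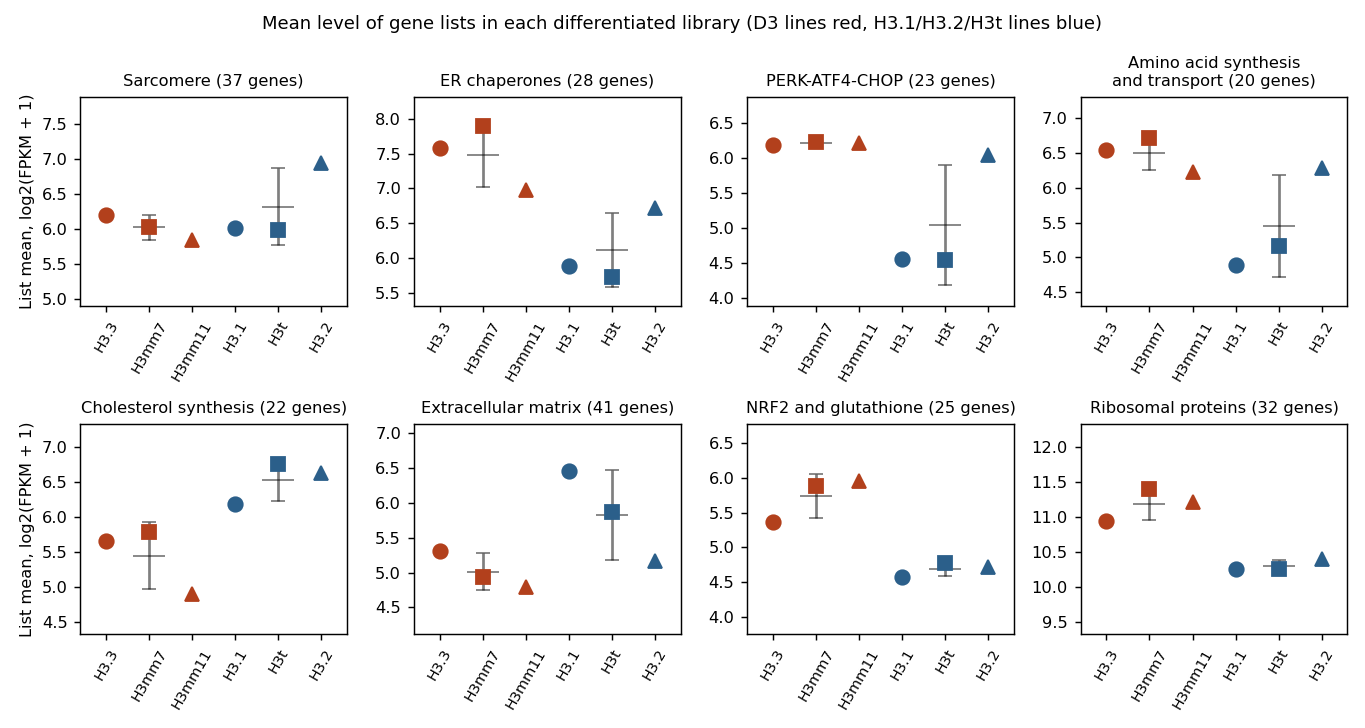
Mean log2(FPKM + 1) of 8 gene lists in each differentiated library, with the set mean and SD over 3 lines in grey. Each vertical axis spans 3 log2 units. The sarcomere mean of H3.2 (6.95) stands above the other 5 libraries, and the ER chaperone means of the D3 lines (6.97 to 7.90) lie above those of the comparison lines (5.74 to 6.72).

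In the whole comparison, 374 genes were called higher in the D3 lines (3.44% of 10880) and 334 lower (3.07%). Of these, 78 and 44 belong to one of the 30 lists. Regardless of size, 1573 genes had all 3 D3 libraries above the others and 1420 had them below. The line nearest to the other set was H3.2 for 212 of the genes called higher (56.7%) and for 181 of those called lower (54.2%). Within the D3 set it was H3mm11 for 206 of the genes called higher (55.1%) and H3.3 for 162 of those called lower (48.5%). From growth to the differentiated state, the genes called higher changed by a median of 1.24 in the D3 lines and 0.11 in the comparison lines. The genes called lower changed by a median of -0.47 in the D3 lines and 0.93 in the comparison lines. Thus 163 of the 334 genes called lower were up by at least 1 in the comparison lines, and 111 were down by at least 1 in the D3 lines.

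The genes with the widest gap between the sets are described first, with positions in mm9. Several are known mainly from tissues other than muscle. Car6 (chr4:149561124-149575441), a secreted carbonic anhydrase of saliva, was at 197, 219 and 154 FPKM in H3.3, H3mm7 and H3mm11 and at 2.21, 1.90 and 4.01 FPKM in H3.1, H3t and H3.2. Its set means were 7.56 ± 0.26 and 1.85 ± 0.42 on the log2 scale (SD, n = 3), a difference of 5.71 that exceeded the spread of either set. In growth all 6 libraries were below 0.25 FPKM.
H2-M10.1 (chr17:36459803-36463100), a non-classical MHC class I gene known from the vomeronasal organ, was at 31.2, 42.6 and 10.9 FPKM in the D3 lines and was listed at 0, 0.0534 and 0.0480 FPKM in the comparison lines. The comparison lines barely had a value at all. Akr1b7 (chr6:34362334-34373142), an aldo-keto reductase, was at 54.3, 43.0 and 52.3 FPKM against 1.51, 0.908 and 4.50 FPKM. The D3 lines were close (SD 0.18 on the log2 scale), and H3.2 was again the highest of the others.
Avil (chr10:126437765-126458050), an actin-binding protein of sensory neurons, was at 40.7, 65.9 and 10.3 FPKM against 0.499, 0.153 and 0.761 FPKM. P2rx3 (chr2:84838740-84877619), an ATP-gated channel of sensory neurons, was at a lower level, at 8.81, 9.41 and 7.80 FPKM against 0.367, 0.350 and 0.311 FPKM. For Ppef1 (chrX:157061026-157173697), a calmodulin-regulated phosphatase, the D3 lines were nearly equal at 45.2, 42.6 and 43.2 FPKM, while the comparison lines spread from 0.490 FPKM in H3.1 to 7.73 FPKM in H3.2.
The rest of the 10 were Gsta3, Taf7l, Ostn and Cd74, with differences of 3.36, 2.59, 2.71 and 3.36. Taf7l is a germ-cell relative of a TFIID subunit, Ostn encodes a secreted peptide of muscle and bone, and Cd74 is the invariant chain of MHC class II. Each had all D3 libraries at or above 4.47 FPKM and all comparison libraries at or below 1.60 FPKM. Avil, H2-M10.1, Cdsn, Akr1b7 and Acox2 are genes that the study shows for this side of PC2, picked on these libraries. All 5 were called higher, with a median difference of 4.09, which restates that choice.

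**Figure D2:**
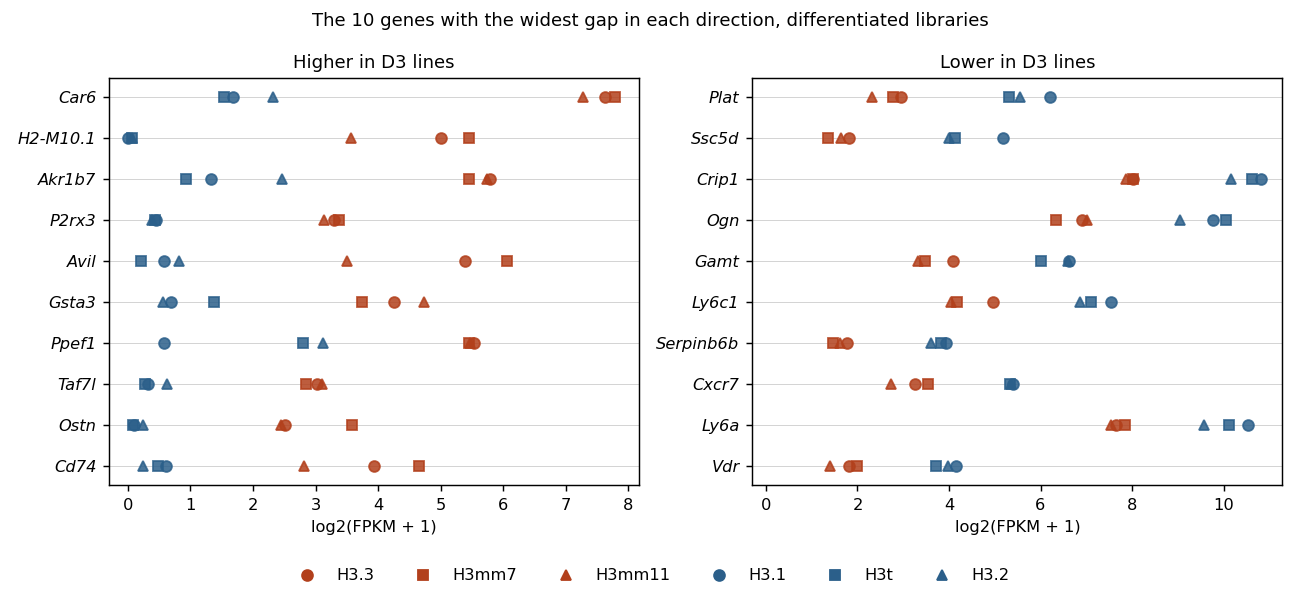
log2(FPKM + 1) of the 10 genes with the widest gap between the sets in each direction, 1 point per differentiated library. D3 lines are red and comparison lines blue, and the gap is 4.95 for Car6 and 2.37 for Plat.

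The 10 genes with the widest gap on the other side follow. Plat (chr8:23868216-23893319), tissue plasminogen activator, was at 6.69, 5.83 and 4.00 FPKM in H3.3, H3mm7 and H3mm11 and at 72.5, 38.8 and 46.1 FPKM in H3.1, H3t and H3.2. Its difference was -3.01, with set means of 2.68 ± 0.32 and 5.69 ± 0.46 (SD, n = 3). In growth the lines had been alike, with 16.2 to 20.5 FPKM, so the D3 lines were down after differentiation and the comparison lines up.
Ogn (chr13:49703440-49719869), a small leucine-rich proteoglycan of the matrix, was at 119.8, 79.8 and 129 FPKM against 872, 1059.6 and 527 FPKM. It was up in all 6 lines compared with growth, where it was at 8.72 to 66.1 FPKM. Ly6a (chr15:74825308-74828064), the stem cell antigen Sca-1, was at 200.3, 229 and 185 FPKM against 1480.5, 1107 and 766 FPKM, and its neighbour Ly6c1 (chr15:74875447-74879260) at 30.0, 17.1 and 15.4 FPKM against 185, 137 and 116 FPKM. The Ly6 genes are close paralogs, as are the Gsta genes, the H2-M10 genes and many ribosomal protein genes, and how the estimate divided shared reads between them was not tested.
Gamt (chr10:79720896-79723757), an enzyme of creatine synthesis, was at 9.05 to 15.98 FPKM in the D3 lines against 98.2, 63.1 and 95.9 FPKM. Vdr, the vitamin D receptor, was at 2.50, 2.99 and 1.64 FPKM against 16.8, 12.1 and 14.8 FPKM. Cxcr7, an atypical chemokine receptor, was nearly constant in the comparison lines (41.1, 39.1 and 39.9 FPKM) and at 8.56, 10.6 and 5.68 FPKM in the D3 lines. The other members of the 10 were Ssc5d, Crip1 and Serpinb6b, with differences of -2.84, -2.56 and -2.17. Mgp, Dag1, Gamt, Angpt1 and Synpo are shown by the study for this side of PC2 and were again picked on these libraries. All 5 were called lower. The differences ran from -3.41 to -2.51 in 4 of them, and the call of Dag1 rests on its listed 0 in H3.3, as H3mm7 and H3mm11 had 79.7 and 76.4 FPKM against 103 to 127 FPKM.

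ER chaperones and disulfide isomerases were higher in the D3 lines. Of 28 genes 16 were called higher (57.1%, against 3.44% of all genes) and 0 lower, with a median difference of 1.44 against -0.0020 for all genes. The list mean was 7.57, 7.90 and 6.97 in H3.3, H3mm7 and H3mm11, and 5.89, 5.74 and 6.72 in H3.1, H3t and H3.2. The sets did not overlap, but H3mm11 and H3.2 lay only 0.25 apart. From growth to the differentiated state this mean changed by 1.63, 2.04 and 1.09 in the D3 lines and by -0.08, -0.20 and 0.80 in the comparison lines.
Hspa5, the chaperone BiP that holds the stress sensors inactive, was at 3688, 2779.8 and 2330.5 FPKM in the D3 lines and at 331, 263 and 1687 FPKM in the H3.1, H3t and H3.2 lines. The difference was 2.45, with 11.49 ± 0.33 against 9.05 ± 1.46 (SD, n = 3), and the wide spread of the comparison lines came from H3.2. Calr, the lectin chaperone calreticulin, had less of this, at 2049, 2707 and 1123 FPKM against 365, 264 and 535 FPKM. Hsp90b1, the ER form of HSP90, was at 1874, 2632 and 1222 FPKM against 334, 254 and 716 FPKM. Hyou1, a large relative of HSP70, was at 209, 263 and 139.8 FPKM against 31.9, 22.4 and 78.7 FPKM, and the isomerase Pdia4 at 408, 632 and 244 FPKM against 60.3, 46.2 and 186 FPKM. All 4 had the same order, with H3mm7 the highest and H3.2 the highest of the comparison lines. Sdf2l1, an ER stress-inducible cofactor, had the largest difference of the list (3.02) and was not called, because H3.2 (212 FPKM) was above H3mm11 (185 FPKM). The 3 genes with a difference below 0 were FK506-binding prolyl isomerases, Fkbp14 (-0.66), Fkbp10 (-0.49) and Fkbp7 (-0.34), named after their values were seen.

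Other ER lists differed less. Of 21 genes of ER-associated degradation and the ATF6/XBP1 branch 2 were called higher (9.52%, against 3.44% of all genes). They were Edem1 (48.7, 54.6 and 35.9 FPKM against 9.98, 15.1 and 18.9 FPKM) and Derl1 (289, 429 and 251 FPKM against 80.5, 108 and 153 FPKM). Edem1 and Derl1 help to pick out misfolded proteins and to move them from the ER. The list median was 0.55. Herpud1, another degradation factor, overlapped between the sets, as H3.2 was at 515 FPKM and H3.3 at 459 FPKM. Of 33 genes of ER translocation and vesicle transport 6 were called higher (18.2%), with a median of 0.38. Sec61b, a subunit of the translocation channel, was at 433, 538 and 326 FPKM against 172, 165 and 165 FPKM. The call of Sec61g rests on its doubtful 0 in H3t, and without that library the D3 lines had 395 to 557 FPKM against 221 and 304 FPKM.

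Genes of the PERK-ATF4-CHOP branch separated the D3 lines from H3.1 and H3t but hardly from H3.2. The list mean over 23 genes was 6.19, 6.22 and 6.21 in the D3 lines, 4.56 in H3.1, 4.53 in H3t and 6.04 in H3.2. The median difference was 1.33, and 7 genes were called higher (30.4%, against 3.44% of all genes). Ddit3, which encodes CHOP, was at 535, 945 and 596 FPKM in H3.3, H3mm7 and H3mm11 and at 67.6, 44.7 and 582 FPKM in H3.1, H3t and H3.2. Because H3.2 was above H3.3, Ddit3 was not called. Atf3 and Ppp1r15a, a transcription factor and a phosphatase subunit of the branch, were not called because H3.2 was above H3mm7. Trib3, an inhibitor of AKT and ATF4, was called, with 247, 243 and 197 FPKM against 18.2, 26.3 and 142 FPKM. Ndrg1, a stress-responsive gene, was the member of this list best separated, at 425, 503 and 501 FPKM against 61.4, 90.0 and 137 FPKM. In growth Ndrg1 was already at 51.3, 54.3 and 49.0 FPKM against 27.4, 25.4 and 30.2 FPKM (difference 0.88, SE 0.13, limma adjusted p = 0.134). Gdf15, a secreted stress hormone, was at 364, 460.1 and 304 FPKM against 129, 33.5 and 232 FPKM.
Amino acid genes, many of them targets of ATF4, had the same shape. Their mean over 20 genes was 6.55, 6.71 and 6.23 in the D3 lines and 4.90, 5.17 and 6.28 in H3.1, H3t and H3.2, so H3.2 was above H3mm11. All 20 differences were above 0, and 8 genes were called higher (40.0%, against 3.44% of all genes). Cth, which makes cysteine, was at 53.6, 71.5 and 44.2 FPKM against 3.17, 13.1 and 35.5 FPKM, and Slc3a2, the heavy chain of amino acid transporters, at 462, 580.4 and 312 FPKM against 99.4, 79.4 and 276 FPKM. Slc6a9, a glycine transporter, was close in the D3 lines and H3.2 (95.0 to 103 FPKM and 97.7 FPKM) and at 18.4 and 23.0 FPKM in H3.1 and H3t. Of 20 tRNA synthetases 5 were called higher (25%, against 3.44% of all genes). Their median difference was 0.67, and Wars had the largest difference (1.49).

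The pairs of lines give the same comparison at matched sarcomere means, and other muscle lists were not matched. Among the 9 pairs of a D3 line with a comparison line, the sarcomere means of H3mm7 and H3.1 differed by 0.0026 and those of H3mm7 and H3t by 0.03. At these matched levels the ER chaperone mean was 2.00 and 2.16 higher in H3mm7, and the PERK-ATF4-CHOP mean 1.67 and 1.69 higher. The extracellular matrix mean differed by -1.52 and -0.93, and the cholesterol synthesis mean by -0.40 and -0.98. In the same pairs the muscle marker mean differed by -0.33 and -0.33 and the myogenic regulator mean by -0.79 and -0.15. The excitation-contraction mean differed by -0.0014 and 0.16. Over the 6 pairs with H3.1 or H3t, the sarcomere difference stayed within 0.21 in size, and the ER chaperone difference ran from 1.08 to 2.16. In the 3 pairs with H3.2, where the D3 line was lower in sarcomere genes by 0.75 to 1.11, the ER chaperone difference ran from 0.25 to 1.17 and the PERK-ATF4-CHOP difference from 0.15 to 0.19. These pairs share lines and are not independent. With the sarcomere mean as a covariate over the 6 libraries, the median difference of the ER chaperone list was 1.85 and that of the PERK-ATF4-CHOP list 1.72. The sarcomere mean of H3.2 (6.95) stood apart from those of the other lines (5.84 to 6.20). This fit therefore rests mainly on H3.2 and cannot separate its sarcomere level from its other features.

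**Figure D3:**
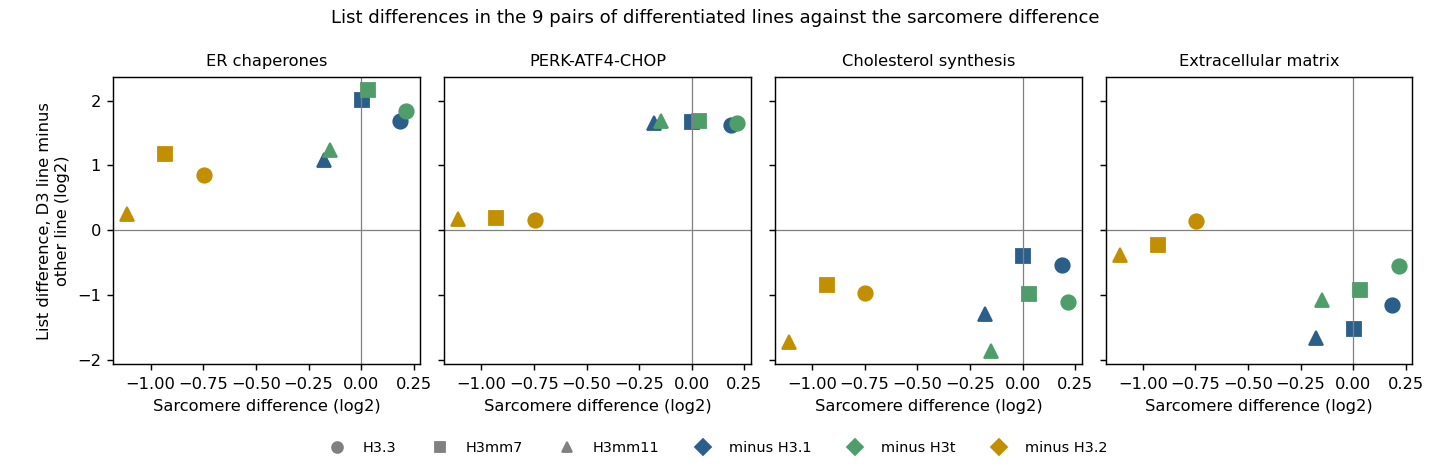
Differences in list means (vertical, log2) against the difference in the sarcomere mean (horizontal, log2) for the 9 pairs of a D3 line, by shape, with a comparison line, by colour. The 6 pairs with H3.1 or H3t lie near 0 on the horizontal axis, and their PERK-ATF4-CHOP differences are 1.63 to 1.69, against 0.15 to 0.19 in the pairs with H3.2.

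Cholesterol synthesis was lower in the D3 lines. The 22 genes tested, mostly targets of the transcription factor SREBP2, had a median difference of -1.21, and 12 were called lower (54.5%, against 3.07% of all genes) and 0 higher. The list mean was 5.66, 5.79 and 4.90 in H3.3, H3mm7 and H3mm11, and 6.19, 6.76 and 6.63 in H3.1, H3t and H3.2. Here the sets did not overlap, H3.2 stood with the other comparison lines and H3mm11 was the lowest. Hsd17b7, an enzyme of the late pathway, was at 13.1, 12.2 and 6.39 FPKM against 34.2, 62.7 and 47.4 FPKM. Nsdhl, which acts beside it, was at 58.9, 61.6 and 31.5 FPKM against 131, 219.8 and 159 FPKM. Idi1, an isomerase of isoprenoid precursors, was at 58.4, 73.7 and 51.6 FPKM against 112, 313 and 250.4 FPKM. Pmvk, Tm7sf2 and Stard4 were called with differences of -1.54, -2.02 and -1.59. Compared with growth, the list mean was 0.61 to 1.69 higher in the differentiated comparison lines. In the D3 lines it changed by 0.38, 0.09 and -0.60.

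Extracellular matrix genes were mostly lower. Of 41 genes 12 were called lower (29.3%, against 3.07% of all genes) and 1 higher (2.44%, against 3.44%). The median difference was -0.73, which was -0.40 without H3.1. The list means overlapped, as H3.2 (5.17) was below H3.3 (5.31), while H3.1 (6.46) and H3t (5.86) were above all D3 lines. Col3a1, a fibrillar collagen, was at 116, 91.9 and 118 FPKM against 527, 437 and 288 FPKM. Col1a1, a chain of type I collagen, was at 2.51, 3.43 and 0.220 FPKM against 42.5, 8.20 and 51.0 FPKM. In growth it was at 12.2, 2.98 and 1.95 FPKM in the D3 lines and at 104, 6.39 and 70.4 FPKM in H3.1, H3t and H3.2. The growth difference was -2.83 (SE 1.18, limma adjusted p = 0.521), and the sets overlapped, as H3.3 was above H3t. Mgp, an inhibitor of calcification, varied most within the D3 set, at 138, 13.1 and 183 FPKM against 984, 502 and 871 FPKM. Aspn, a proteoglycan related to Ogn, was at 0.963, 2.59 and 0.539 FPKM against 32.1, 48.3 and 10.08 FPKM. The exception was Col18a1, whose C-terminal part is endostatin, at 34.7, 32.9 and 26.6 FPKM against 4.73, 6.74 and 1.31 FPKM. In growth Col18a1 was already at 20.3, 16.7 and 14.3 FPKM against 4.24, 8.90 and 4.46 FPKM (difference 1.45, SE 0.26, limma adjusted p = 0.156). Single markers of other cell types were also lower, while the marker lists did not go one way. Summed over 6 fibroblast and stem cell markers, FPKM was 207 to 239.8 in the D3 libraries and 791 to 1500.2 in the comparison libraries, most of it Ly6a, and of the 3 markers that passed the filter only Ly6a was called, while Pi16 had a difference of 0.69. The part of such cells in the result was not tested, and in bulk RNA fewer cells of a type and less RNA per cell cannot be told apart. Neuron and glia markers summed to 11.3 to 29.3 FPKM and 36.5 to 120.2 FPKM, mainly Tubb3, with Sox10 at 0 in all 6 libraries. Tubb3 was called lower, while Map2, the other member past the filter, had a difference of 0.48 and was not called. For keratinocyte markers the sums were 5.00 to 5.91 and 11.5 to 26.1 FPKM, mainly Krt14, with Epcam at 0. Macrophage and endothelial markers summed to 2.61 to 4.23 and 0.659 to 1.49 FPKM, with Emr1 at 0. Cd68, the only member past the filter, was called higher, at 1.38, 3.90 and 1.18 FPKM against 0.327, 0.257 and 0.623 FPKM. It passed the filter only through the D3 lines, and its difference in growth was -0.04. For adipocyte markers the sums were 27.7 to 46.9 and 15.0 to 17.8 FPKM, where Lpl was called higher. Those for bone and cartilage were 11.04 to 20.6 and 14.0 to 19.5 FPKM. In growth Lpl was already at 6.06, 16.4 and 3.89 FPKM against 0.708, 1.97 and 1.25 FPKM (difference 1.91, SE 0.44, limma adjusted p = 0.230).

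Glutathione and NRF2 target genes were higher in the D3 lines. Of 25 genes 8 were called higher (32%, against 3.44% of all genes) and 1 lower (4%, against 3.07%). The median was 0.79, and the list means were 5.37, 5.87 and 5.95 against 4.58, 4.78 and 4.73. Unlike the lists of the PERK branch, all 3 comparison lines were alike. Gsta4, a glutathione S-transferase for lipid aldehydes, was at 172, 666 and 400.2 FPKM against 84.4, 133 and 62.2 FPKM, and Hmox1, heme oxygenase, at 218, 276 and 168 FPKM against 53.8, 45.1 and 114 FPKM. Gsta3 was at 18.2, 12.3 and 25.6 FPKM against 0.622, 1.60 and 0.484 FPKM. From growth to the differentiated state the list mean changed by -0.25 to 0.20 in the D3 lines and by -0.71 to -0.41 in the comparison lines.
Of 12 interferon-stimulated genes that passed the filter, of 23 fixed, 6 were called higher (50%, against 3.44% of all genes), with a median of 0.98. Irf7, Ifi44 and Usp18 were below 1 FPKM in all comparison lines and passed the filter only through the D3 lines. The filter thus favours higher values in this list, and the count and median are a description. Bst2, the virus tether tetherin, was at 55.8, 70.7 and 31.9 FPKM against 4.98, 7.56 and 4.04 FPKM. In growth Bst2 was already at 5.50, 9.23 and 7.07 FPKM against 2.09, 2.11 and 3.68 FPKM (difference 1.19, SE 0.23, limma adjusted p = 0.162). The rest were low, and H3.3 led them. Usp18, which damps interferon signalling, was at 9.55, 1.08 and 0.901 FPKM against 0.0291, 0.293 and 0.125 FPKM, and without the H3.3 line the median of the list was 0.44.
Cytosolic ribosomal protein genes were higher by a median of 0.90, with 31 of 32 differences above 0. Of these 32 genes 12 were called higher (37.5%, against 3.44% of all genes). Their list mean was 10.94, 11.41 and 11.21 against 10.26, 10.25 and 10.40. Rplp1, a stalk protein of the large subunit, was at 8905, 13867 and 8135 FPKM against 4525, 4071 and 4457 FPKM. Total FPKM and the part held by the 100 highest genes were also higher in the D3 libraries, and their part in this result was not tested. Respiratory chain and proteasome genes showed no call (0 of 32 and 0 of 31), with medians of -0.08 and 0.02. Of 37 cell cycle genes 2 were called lower, Rrm2 and Ccna2, with a list median of -0.95. This share of 5.41% stood beside 3.07% of all genes, and the median was -0.52 without H3.1. Their list means overlapped, as H3mm7 (3.02) lay above H3.2 (2.46). Of 6 CDK inhibitors and pocket proteins and 11 H3 chaperones 0 were called.

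Values in the remaining differentiated lines are set beside these without a comparison. In H3mm12, H3mm13 and H3mm16 the ER chaperone mean was 5.55, 5.88 and 5.54, and the PERK-ATF4-CHOP mean was 4.51, 5.62 and 5.52. Their sarcomere means were 8.22, 7.42 and 7.57, above all 6 lines compared here. In WT cells the ER chaperone mean was 6.04 and the sarcomere mean 7.95, but the ribosomal protein mean of 5.63 set that library apart from those of all lines.

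The growth libraries of the same 6 lines were then tested, to see which differences were present before differentiation. The rule did not use the growth contrast, although the growth libraries entered the same principal components. Of 10614 genes, 5 were higher in the D3 lines (0.0471%) and 0 lower (0%) at a limma adjusted p under 0.05 and a difference of at least 1. At an unadjusted p under 0.05, 655 genes were higher and 371 lower, of which 148 and 18 differed by at least 1. These counts rest on single lines. Without H3.3 or without H3.2, 0 genes were called, without H3mm7 there was 1, and without H3mm11 and H3t there were 22 and 8.
Wisp2, a secreted CCN family protein, was at 12.3, 14.3 and 14.8 FPKM in growing H3.3, H3mm7 and H3mm11 cells and at 3.15, 2.84 and 2.06 FPKM in H3.1, H3t and H3.2 cells. The difference was 2.01 (SE 0.16, limma adjusted p = 0.0199, 0.0099 to 0.0861 over the alternatives). Fabp7, a fatty acid binding protein, was at 4.81, 4.27 and 3.58 FPKM against 0.607, 0.418 and 0.221 FPKM, a difference of 1.88 (SE 0.17, limma adjusted p = 0.0235, 0.0185 to 0.102 over the alternatives). It was at or below 0.222 FPKM in all 6 differentiated libraries. Mgst1, a microsomal glutathione transferase, was at 18.2, 16.7 and 13.5 FPKM against 1.35, 2.92 and 2.90 FPKM, a difference of 2.37 (SE 0.23, limma adjusted p = 0.0235, 0.0099 to 0.135 over the alternatives). After differentiation the Mgst1 values overlapped.
Gsta3 was at 4.43, 4.01 and 3.86 FPKM against 0.313, 0.874 and 0.659 FPKM, with a difference of 1.67 (SE 0.17, limma adjusted p = 0.0287, 0.0202 to 0.145 over the alternatives). Wisp2 and Gsta3 were also called higher in the differentiated libraries, 2 of the 4 growth genes that passed the filter there, Wisp2 with a gap of only 0.02 between the sets. The fifth was Tnni1, the slow troponin I, at 4.16, 3.97 and 3.99 FPKM against 0.505, 0.853 and 0.879 FPKM (difference 1.54, SE 0.15, limma adjusted p = 0.0235, 0.0194 to 0.121 over the alternatives). In the differentiated state Tnni1 overlapped, at 180.0 to 540.4 FPKM and 250.5 to 602 FPKM. Among the genes lower in growth, Nefl, a neurofilament subunit, had the smallest p (difference -2.48, SE 0.38, limma adjusted p = 0.134), and Ccbe1, Igsf5, A230070E04Rik and Arl4c followed with adjusted p of 0.145 to 0.168 by limma.

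**Figure D4:**
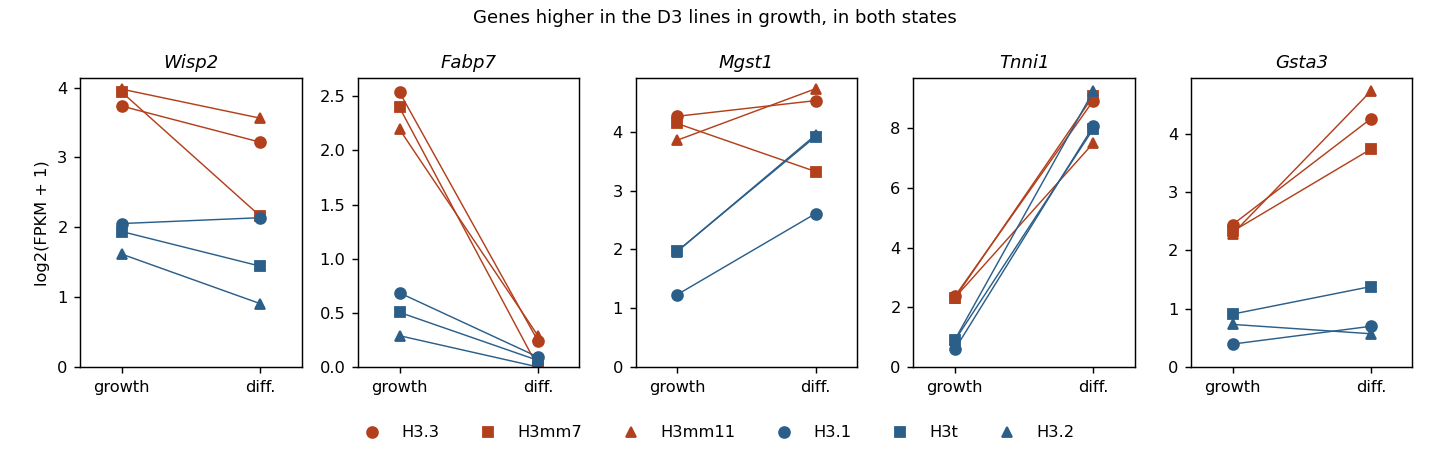
log2(FPKM + 1) of the 5 genes called higher in the growing D3 lines, in growth and after differentiation (diff.), with 1 line joining the libraries of a cell line. D3 lines are red and comparison lines blue. The growth libraries do not overlap in any panel, and after differentiation those of Tnni1, Mgst1 and Fabp7 do.

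Several list differences of the differentiated state were small in growth. The ER chaperone list had a median growth difference of -0.03 over 28 genes, the cholesterol list 0.20 over 22 and the matrix list 0.14 over 40, against -0.0028 for all genes. None of these lists held a called gene. For the 28 ER chaperones, 1 gene had an unadjusted limma p under 0.05. The genes called higher in differentiated cells had a median growth difference of 0.13, and those called lower 0.06. These medians cover the 294 of 374 and 292 of 334 genes that passed the filter in growth. Car6, Avil and H2-M10.1 are among those that did not. Of the 30 lists, 2 had called members in growth, sarcomere (Tnni1) and NRF2 and glutathione (Gsta3 and Mgst1). The NRF2 and glutathione list had a median growth difference of 0.46, beside 0.79 after differentiation, and 9 of its 23 genes had an unadjusted limma p under 0.05, all of them higher in the D3 lines.
The sarcomere list was the one with the largest growth difference among lists with more than 5 genes tested. Its 20 genes tested had a median of 1.48, with 17 at an unadjusted limma p under 0.05, all of them higher in the D3 lines, and 1 called. The mean level over the 37 genes was 2.33, 2.86 and 2.42 in growing H3.3, H3mm7 and H3mm11 cells and 1.47, 1.68 and 1.76 in H3.1, H3t and H3.2 cells. Myog, at 7.35, 23.1 and 9.46 FPKM against 0.106, 1.19 and 3.21 FPKM, differed by 2.56 (SE 0.53, limma adjusted p = 0.195). The D3 lines thus had the higher sarcomere level in growth and not after differentiation, with changes of 3.16 to 3.88 against 4.31 to 5.19 in the comparison lines.

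**Figure D5:**
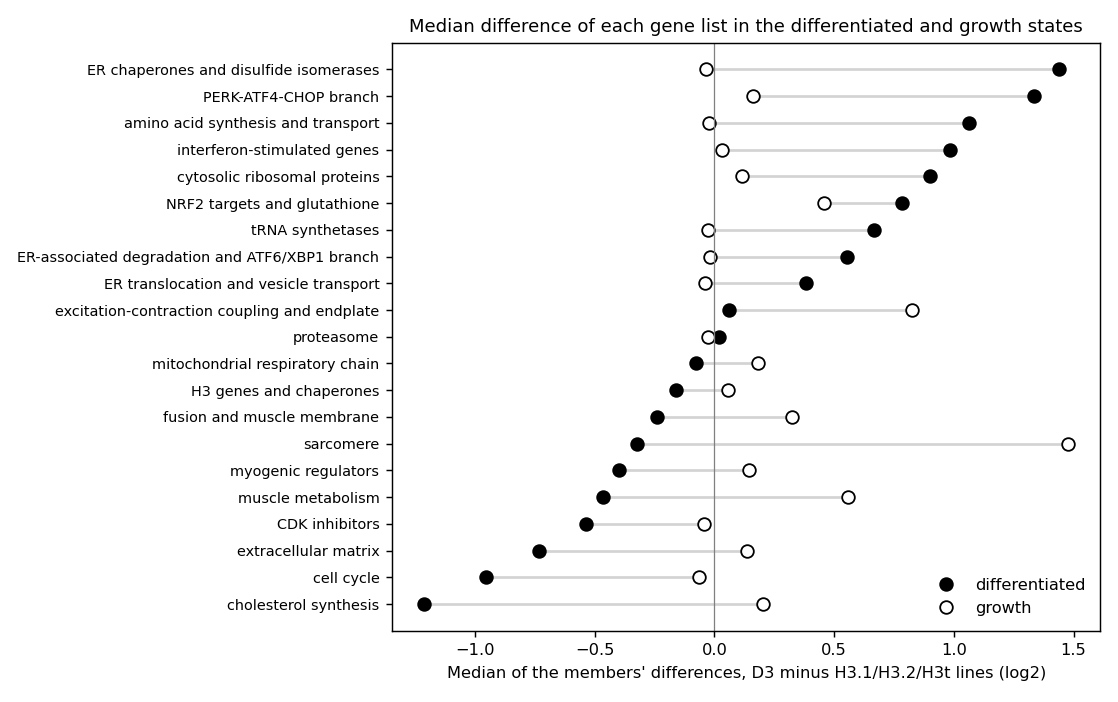
Median of the members' differences (D3 minus comparison lines, log2) for 21 gene lists, in differentiated cells (filled) and in growth (open). ER chaperones are at 1.44 and -0.03, and sarcomere genes at -0.32 and 1.48.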

How the data were processed

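mRNA-Seq libraries of 6 GFP-H3 lines in 2 states were compared. Those of the other 3 lines entered PC2, and their list means and those of WT cells are given without a comparison. Read alignment by the authors used TopHat2 2.0.8 on mm9, and they estimated FPKM with Cuffdiff of Cufflinks 2.0.1 at default settings, per the study's methods and the submitters' notes, and the deposited FPKM were used as given. FPKM keeps no read numbers, so depth is known only in relative terms and no counting interval is given. Groups came from the sample labels, with the column H3mmT taken as H3t. The members, lists and tests were chosen with earlier results of these data known. Named genes are the 10 with the widest gap between the sets in each direction, up to 6 members of each list with the largest difference, the genes at the filter, the 5 smallest p in each direction in growth, and genes the study shows for PC2. Exceptions are marked.

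The differentiated libraries were compared on log2(FPKM + 1) without a test. Growth libraries were tested with limma 3.58.1 (trend and robust, two-sided, Benjamini-Hochberg adjustment over 10614 genes), which was tested on simulated data first. The mRNA-Seq has 1 library per line and state, so p-values measure the spread between lines. Alternatives covered the pseudocount, the filter, scaling between libraries, the limma settings, the sarcomere mean as a covariate and leaving out each line. Promoters were matched by symbol or RefSeq synonym, for 23 of 28 ER chaperone genes. Gene positions are from GENCODE on mm9. Python 3.11.15, numpy 2.4.6, pandas 2.3.3, R 4.3.3 and matplotlib 3.10.9 were used. The 3′-seq and ChIP-Seq data were not used here.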

Additional observations from a re-analysis of the deposited data

Results flagged for a closer look

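From growth to the differentiated state, some lists and genes changed in opposite directions in every line of the 2 sets. This difference was not tested, since the sets were chosen on the differentiated libraries. The mean of 12 myogenic regulators changed by -0.97 to -0.39 in the 3 D3 lines and by 0.10 to 0.80 in the 3 comparison lines, a difference of -0.99 between the mean changes. Their growth levels already differed, at 5.35, 5.73 and 5.21 in the D3 lines (H3.3, H3mm7 and H3mm11) and 4.75, 4.82 and 5.11 in the comparison lines (H3.1, H3t and H3.2), and this enters the difference. Cytosolic ribosomal protein genes went the other way, with a difference of 0.83. Their mean changed by 0.36, 1.04 and 0.67 in the D3 lines and by -0.30, -0.02 and -0.12 in the comparison lines. The opposite sign in H3t thus rests on a change of only -0.02. Among the genes with the widest gaps, all 6 of this kind were down in the D3 lines and up in the comparison lines. The differences between the mean changes were -3.17 for Plat, -2.83 for Ssc5d, -2.80 for Gamt, -3.43 for Ly6c1, -1.72 for Cxcr7 and -3.17 for Ly6a.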

How the results depend on the processing

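With single lines left out, 332 to 578 genes were called higher in the differentiated D3 lines and 328 to 519 lower. The highest counts came without H3.2, the comparison line nearest to the D3 lines for 56.7% of the genes called higher and 54.2% of those called lower. Filters, pseudocounts and scaling kept both counts within 1.5 times the main ones. The sarcomere median, -0.32 in the full comparison, was 0.03 without H3.2, while that of the ER chaperones ran from 1.20 (without H3mm7) to 1.88 when a line was left out. In growth, 0 to 22 genes were called higher without a line, 1 with a pseudocount of 0.01 FPKM, 2 with a filter at 5 FPKM and 0 with no filter, and 0 were called lower in each setting. The cause was not tested. The growth median of the myogenic regulators ran from -0.019 (without H3mm7) to 0.317 when a line was left out. That of the interferon-stimulated genes ran from -0.025 (without H3mm11) to 0.193 and was -0.018 after rescaling by the median of ratios. Lines pair the growth and differentiated libraries but not the sets. Changes within a line are given without a test, since the sets were chosen on the differentiated libraries. FPKM without read numbers limits what can be said of low genes, and 1 library per line leaves culture effects inseparable from line effects.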
